A study of Rattus norvegicus with 6 samples.

Results

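The genes described here are 6 transcription factors of blood vessel cells: the SoxF factors Sox17, Sox18 and Sox7, the Ets factors Erg and Fli1, and the homeobox factor Hhex. They were read out in rat mammospheres, balls of cells that form in suspension from dispersed mammary cells. All 6 were among the 10424 genes tested and the 14217 genes that at least 1 probe set named alone. The genes were fixed by name, with earlier results of these data known, and the probe set that stands for each was chosen by its mean level over the 6 arrays, the brightest being taken. That mean is given as a description only.

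Affymetrix 3' arrays of both groups were compared, 3 in each. The hCG group came from female Sprague Dawley rats injected into the peritoneum with recombinant human chorionic gonadotropin at 100 IU per day for 21 days from the age of 55 days, and the Control group from female rats of the same strain and age given phosphate buffered saline. Mammary glands 4 and 5 were taken 21 days after the last injection, and cells enriched for epithelium were grown for 7 days with epidermal growth factor, basic fibroblast growth factor and heparin in both groups. Glands came from 3 animals a group, but no label ties an array to an animal, so the spread behind each p-value is that between arrays and may be technical. The comparison asks which genes differ in spheres started after the hormone had been withdrawn.

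SoxF proteins bind DNA through a high mobility group box. In mice they act in part in each other's place during vessel formation: Sox17 is best known in arteries, Sox18 in the start of lymphatic vessels and Sox7 in early vascular and blood-forming cells. Erg and Fli1 are close relatives with an Ets DNA-binding domain, and both keep endothelial genes such as those of vessel junctions active, while Fli1 also serves megakaryocytes and lymphocytes. Hhex is a homeobox repressor of early endothelium, blood progenitors and liver.

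Over the whole table array medians lay between 3.44 and 3.48, and the lowest correlation between 2 arrays over tested probe sets was 0.967. Control 7 was no nearer to its own group than to the nearest hCG array: it correlated with hCG 6 at 0.984, with Control 6 at 0.983 and with Control 5 at 0.980. Control 5 and Control 6 also correlated with hCG 6 at 0.983 and 0.984, and with each other at 0.991. Bacterial poly-A transcripts, spiked into the RNA before labelling, averaged 4.51 ± 0.34 on hCG arrays and 5.56 ± 0.14 on Control arrays (SD, n = 3 each; two-sided exact permutation p = 0.1, the lowest value this design gives). The difference between 3' and 5' signal of Actb was 1.63 ± 0.11 on hCG and 1.76 ± 0.37 on Control arrays (two-sided exact permutation p = 0.8), and the highest value, 2.18, was on Control 7. The part of spike level and RNA quality in the changes below was not tested.

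All 6 factors were brighter in hCG spheres than in Control spheres on their brightest probe set, and in each the 3 hCG arrays lay above the 3 Control arrays. By limma's moderated test, adjusted by Benjamini-Hochberg over all 10424 genes, 4 rose, Sox17, Sox18, Erg and Fli1, and Sox7 and Hhex missed the threshold of 0.05. Over all tested genes 1.82% passed in either direction, 1.01% as higher and 0.815% as lower in hCG, and 19.3% had hCG arrays wholly above Control arrays. The median log2 change was 1.12 over the 6 factors and 0.03 over all tested genes. These counts describe factors that were picked with earlier results of these data known, and nothing is read from the gap to the background. Spheres were measured in bulk, so more endothelial cells, more RNA per endothelial cell and RNA from other cells cannot be told apart.

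**Figure D1:**
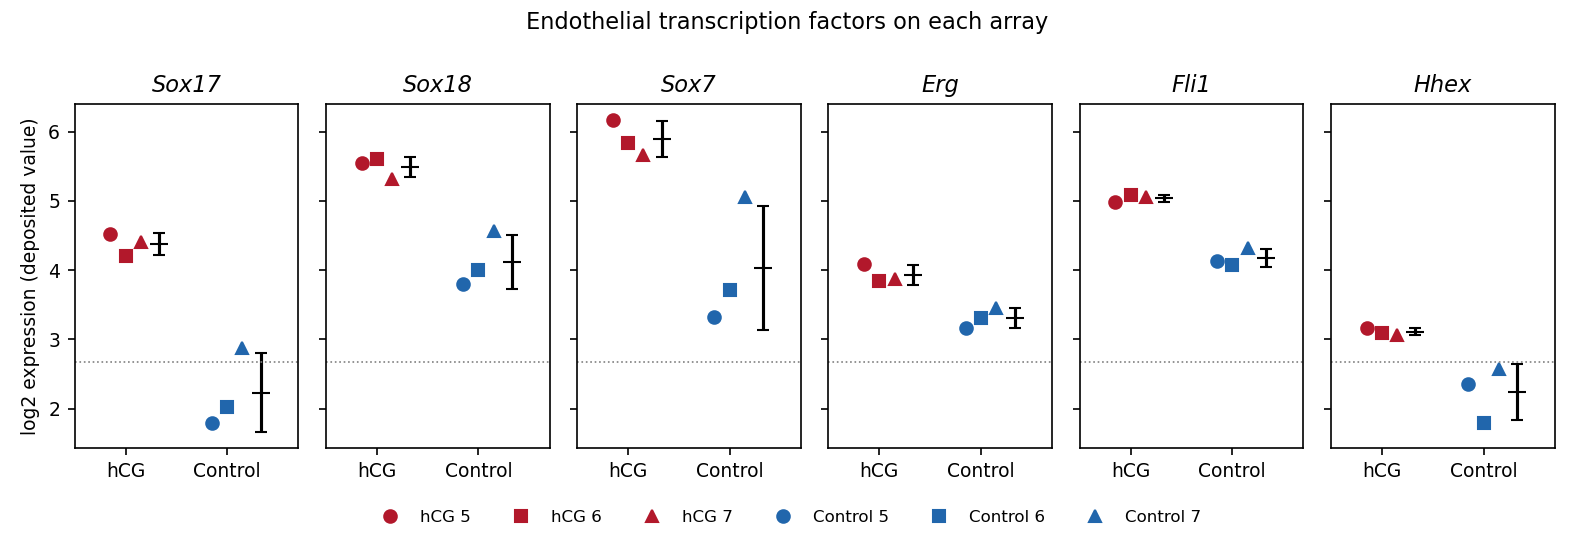
Deposited log2 expression (y axis) of the brightest probe set of each factor on the 3 hCG arrays (red) and the 3 Control arrays (blue), with the array number as the marker shape, black bars for the group mean ± SD and a dotted line at the filter level of 2.67. In all 6 panels the hCG points lie above the Control points, and Control 7 is the highest of the Control arrays.

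Sox17 had log2 values of 4.52, 4.21 and 4.41 on hCG arrays 5, 6 and 7, against 1.79, 2.03 and 2.88 on Control arrays 5, 6 and 7. The hCG arrays lay close together and far above all Control arrays, of which Control 7 was the highest. The gap between the lowest hCG and the highest Control array was 1.34 on the log2 scale. Sox17 rose by a log2 change of 2.15 (SE 0.27, 4.43-fold, limma adjusted p = 0.0341), and only 3 tested genes had a higher log2 change. Its Control mean of 2.23 ± 0.57 (SD, n = 3) lay under the filter level of 2.67, so that Sox17 was tested through its hCG values, which averaged 4.38 ± 0.16 (SD, n = 3), and its fold starts from dim signal.

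Of the other 2 Sox17 probe sets neither passed the filter. Probe set 1390041_at read 1.96, 2.01 and 1.84 on hCG arrays and 1.93, 1.69 and 1.73 on Control arrays. Probe set 1378935_at read 1.53, 1.49 and 1.56 on hCG arrays and 1.53, 1.53 and 1.54 on Control arrays. Both were dim in every sample and their groups overlapped, so the rise of Sox17 rests on 1 probe set, 1392990_at.

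Sox18 read 5.55, 5.60 and 5.32 on hCG arrays, against 3.80, 4.01 and 4.56 on Control arrays. Every hCG array was above every Control array, with the smallest gap, 0.76, to Control 7. Sox18 rose by 1.37 on the log2 scale (SE 0.20, 2.58-fold, limma adjusted p = 0.0368). Means were 5.49 ± 0.15 in hCG and 4.12 ± 0.39 in Control spheres (SD, n = 3 each).

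Sox7 read 6.17, 5.83 and 5.66 on hCG arrays, against 3.33, 3.72 and 5.05 on Control arrays. The groups did not overlap, but the Control arrays were spread widely, and Control 7 lay much nearer to the hCG arrays than Control 5 and Control 6 did. The log2 change was 1.85 (SE 0.42, 3.61-fold), and it missed the threshold (limma adjusted p = 0.0696). The Control SD of Sox7 was 0.90, the widest of the 6 factors, against 0.26 in hCG spheres. Without Control 7 the change was 2.36 and passed (limma adjusted p = 0.0112).

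Erg read 4.09, 3.84 and 3.87 on hCG arrays, against 3.17, 3.31 and 3.45 on Control arrays. Both groups were tight and did not overlap. Erg rose by 0.62 on the log2 scale (SE 0.11, 1.54-fold, limma adjusted p = 0.0493), the smallest change of the 6, and this call is at the edge: adjusted over all 18625 tested probe sets in place of genes, the adjusted p was 0.0513. The second Erg probe set, 1392220_at, read 2.85, 2.94 and 3.11 on hCG arrays and 2.43, 2.11 and 2.37 on Control arrays. It was also higher without overlap, by 0.66, but its mean of 2.63 over the 6 arrays lay just below the filter, so it was not in the test.

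Fli1 was covered by 4 probe sets, all above the filter, and they did not behave alike. The brightest, 1390914_at, read 4.98, 5.08 and 5.06 on hCG arrays, against 4.13, 4.07 and 4.32 on Control arrays. The groups were tight and apart, and Fli1 rose by 0.87 (SE 0.09, 1.82-fold, limma adjusted p = 0.0289), the smallest adjusted p of the 6 factors. Probe set 1393249_at read 5.11, 5.00 and 5.10 on hCG arrays and 3.95, 3.41 and 4.48 on Control arrays, a change of 1.12. Probe set 1383199_at read 3.05, 3.12 and 3.42 on hCG arrays and 2.53, 2.49 and 2.86 on Control arrays, a change of 0.57. Neither of these passed over all probe sets, of which 1.60% did (limma adjusted p = 0.0677 and 0.0869), although their groups did not overlap.

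The fourth Fli1 probe set, 1377494_at, read 4.26, 4.29 and 4.21 on hCG arrays, against 4.33, 4.20 and 4.42 on Control arrays. These groups overlapped, and their means differed by -0.06 (SE 0.09, limma adjusted p = 0.714 over all probe sets). The array-by-array difference between the brightest probe set and this one was 0.79 ± 0.06 in hCG spheres and -0.14 ± 0.05 in Control spheres (SD, n = 3 each), a change of 0.93 (two-sided exact permutation p = 0.1, the smallest that 3 against 3 allow, and 0.15 after Benjamini-Hochberg adjustment over the 3 Fli1 differences). With the mean of its 4 probe sets in place of the brightest, the change of Fli1 was 0.62 and no longer passed (limma adjusted p = 0.0532). Where in the Fli1 transcripts each probe set lies is not given in the sources used here.

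**Figure D2:**
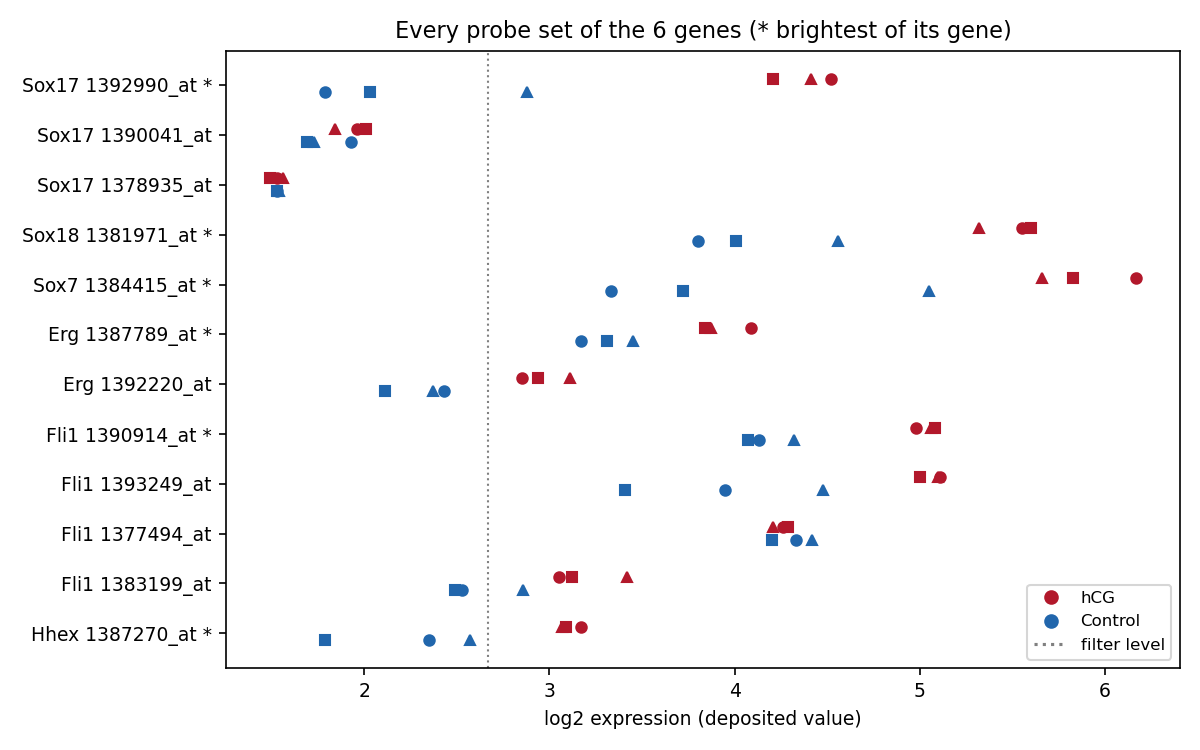
Deposited log2 expression (x axis) of each of the 12 probe sets of the 6 genes on 3 hCG arrays (red, upper row of each pair) and 3 Control arrays (blue, lower row), with circles, squares and triangles for array numbers 5, 6 and 7 and a dotted line at the filter level. In 9 probe sets all hCG points lie to the right of all Control points, and the exceptions are the 2 dim Sox17 probe sets and Fli1 1377494_at.

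Hhex read 3.17, 3.09 and 3.07 on hCG arrays, against 2.35, 1.79 and 2.57 on Control arrays. The 3 hCG arrays were nearly equal and above all Control arrays, of which Control 6 was the lowest. The log2 change of 0.87 (SE 0.19, 1.83-fold) missed the threshold (limma adjusted p = 0.0671), and without Control 7 it was 1.04 and passed (limma adjusted p = 0.0377). Hhex was the factor closest to the filter, which its mean of 2.67 over the 6 arrays barely exceeded, and its Control mean of 2.24 ± 0.41 (SD, n = 3) was below it.

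The calls of the 6 factors depended on which arrays were in the fit, while every change stayed above 0. Without Control 7 all 6 passed, in a fit that called 584 genes in the whole table, against 190 with all arrays. Without hCG 6 Sox17, Sox18 and Fli1 passed, in a fit that called 338 genes. Without hCG 5, hCG 7, Control 5 or Control 6 limma called 0 genes in the whole table, these 6 included. In those 4 fits between 1455 and 1950 genes were under 0.05 before adjustment, and 2510 were with all arrays. With 1 array left out in turn, the change of Sox17 lay between 1.93 and 2.47, that of Sox7 between 1.50 and 2.36 and that of Erg between 0.54 and 0.69.

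Control 7 was the highest Control array in 6 of 6 factors, in 16 of 16 endothelial surface markers and in 12 of 13 epithelial markers, and it was the highest in 50.0% of all tested genes. Its distance from the other Control arrays differed between factors: it was widest in Sox7 and small in Erg and Fli1. In Hhex Control 7 (2.57) lay near Control 5 (2.35) but far above Control 6 (1.79). Relative to the Control mean, the average of the 6 factors was 1.40, 1.26 and 1.21 on hCG arrays 5, 6 and 7, against -0.26, -0.20 and 0.45 on Control arrays 5, 6 and 7. The 16 surface markers followed with averages of 1.10, 1.11 and 1.05 on hCG arrays and -0.27, -0.21 and 0.48 on Control arrays.

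On each hCG array the SoxF factors lay further above their Control means than the surface markers did on average, and the Ets factors and Hhex less far. Changes of single markers ran from -0.21 for Eng to 2.03 for Cd93, against 2.15 for Sox17, 1.85 for Sox7 and 1.37 for Sox18. Cd93 and Emcn (1.89) thus changed more than Sox7, and no marker changed more than Sox17. The change of Sox17 relative to the mean marker change was 1.18, 0.86 and 1.13 on hCG arrays, against -0.17, 0.01 and 0.16 on Control arrays. All hCG arrays were above all Control arrays, and the means differed by 1.06, a value that starts from Control signal under the filter level and rests on 1 of 3 Sox17 probe sets. The same difference was 0.77 for Sox7 and 0.28 for Sox18, and in these 3 genes the groups did not overlap. It was -0.46 for Erg, -0.22 for Fli1 and -0.22 for Hhex, with groups that overlapped in each. The exact two-sided permutation p was 0.1 for each SoxF factor, the smallest possible, and 0.2, 0.4 and 0.3 for Erg, Fli1 and Hhex; after Benjamini-Hochberg adjustment over these 6 comparisons the values were 0.2 for each SoxF factor and 0.3, 0.4 and 0.36 for Erg, Fli1 and Hhex.

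**Figure D3:**
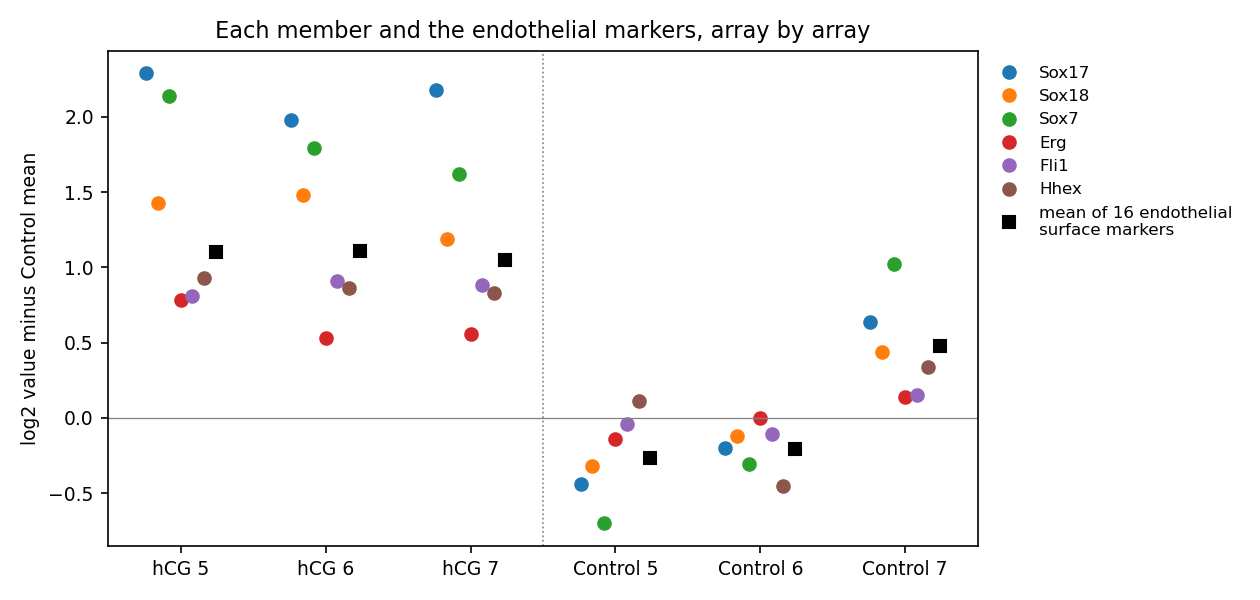
Log2 value minus the Control mean (y axis) on each of the 3 hCG arrays (left of the dotted line) and 3 Control arrays (right), with a coloured point for each factor and a black square for the mean of 16 endothelial surface markers. On every hCG array Sox17, Sox7 and Sox18 lie above the marker mean and Erg, Fli1 and Hhex below it.

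Surface markers of endothelium were counted in the same fit, from a list that was also chosen with earlier results of these data known. They describe the spheres and do not show which cells carry the 6 factors. Of 20 listed markers 18 had a probe set, 16 were tested, 5 rose and 0 fell, and 13 had hCG arrays wholly above Control arrays, with a median change of 0.99. Over all tested genes 1.01% passed as higher and 19.3% had hCG arrays wholly above Control arrays. The 5 were Cd93, a surface lectin-like receptor (2.03), the sialomucin gene Emcn (1.89), the adhesion receptor gene Adgrl4 (1.84), Icam2, a cell adhesion molecule (1.66), and the junction gene Esam (0.98), with SEs between 0.14 and 0.30 and limma adjusted p = 0.0368 for each. Emcn read 6.88, 7.11 and 6.90 on hCG arrays, against 4.60, 4.91 and 5.71 on Control arrays. Of the markers most often used to define endothelium, Pecam1 averaged 5.31 in hCG and 3.70 in Control spheres and did not pass (limma adjusted p = 0.0711), and Vwf averaged 1.98 and 2.08 and Tie1 2.74 and 2.07, both below the filter by their mean over the 6 arrays. The 3 hCG values of Tie1, from 2.54 to 2.88, were above its Control values, from 1.81 to 2.34. Of the 16 tested markers 15 had a change above 0. Eng did not: it averaged 6.05 in hCG and 6.26 in Control spheres, a change of -0.21 (limma adjusted p = 0.320). The groups overlapped in Eng, Tek (0.38) and Mmrn2 (0.28). Cdh5 and Robo4 were not analysed here.

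Genes whose control regions SoxF or Ets factors are known to bind in endothelial cells were listed separately. This list too was chosen with earlier results of these data known. Of 25 such genes 17 were tested, 2 rose and 0 fell, 10 had hCG arrays wholly above Control arrays, and the median change was 0.67. Among all tested genes 1.01% passed as higher and 19.3% had hCG arrays wholly above Control arrays. The 2 targets that rose were Icam2 and Esam, both also surface markers, and 10 of the 17 tested genes are in both lists. Icam2 read 4.97, 4.85 and 4.85 on hCG arrays, against 3.01, 2.88 and 3.80 on Control arrays. For Notch1, a receptor for signals between neighbouring cells, the log2 difference was 0.71 with an SE of 0.13, and its adjusted p lay just over the threshold of 0.05. The tight junction gene Cldn5 had a change of 1.62 (limma adjusted p = 0.0556). The chemokine receptor gene Cxcr4 had one of 1.39 and Egfl7, a secreted vessel protein, one of 0.64 (limma adjusted p = 0.0671 for each). Others lay near 0, such as the receptor genes Flt1 (0.06) and Ephb4 (-0.06).

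Other transcription factors of endothelial cells were counted in the same way. Of 27 listed, 23 were tested, with a median change of 0.08. Of these 23, 15 had a change above 0, 2 rose and 0 fell. In 6 the hCG arrays lay wholly above Control arrays and in 1 wholly below. The shares over all tested genes were 1.01% passing as higher and 19.3% with hCG arrays wholly above Control arrays. Ets1, an Ets factor of vessels and lymphocytes, read 8.70, 8.62 and 8.77 on hCG arrays, against 7.94, 7.85 and 8.02 on Control arrays. The groups were tight and apart, and Ets1 rose by 0.76 (SE 0.09, limma adjusted p = 0.0294). Lmo2, a bridging protein in blood and vessel factor complexes, rose by 0.72 (SE 0.13, limma adjusted p = 0.0493), with an adjusted p of 0.0513 over all probe sets. The hypoxia factor gene Epas1 had a change of 1.13 (limma adjusted p = 0.0920), Tcf4 of 0.39 (0.138) and the Notch target Heyl of 0.26 (0.145). Tal1, which works with Lmo2 in blood and vessel progenitors, had a change of 0.11, the flow-induced factor gene Klf2 of 0.05 and the venous factor gene Nr2f2 of 0.04. Foxo1 had a change of -0.32, with hCG arrays wholly below Control arrays, and did not pass (limma adjusted p = 0.185). Foxf1 had one of -0.64, with groups that overlapped (limma adjusted p = 0.203).

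Relatives of the 6 factors outside the endothelial lists had median changes near 0. Of 18 other Ets factors 11 were tested, with a median change of 0.00, and 1 fell: Etv1, a factor downstream of growth factor signals, with 6.73, 6.80 and 6.57 on hCG arrays and 7.30, 7.38 and 7.21 on Control arrays. The groups did not overlap, and the change was -0.60 (SE 0.09, limma adjusted p = 0.0382). Etv3 had a change of -0.26 and the epithelial factor gene Elf3 of -0.35 (limma adjusted p = 0.141 and 0.226). Of 16 Sox factors of other groups 11 had a probe set and 4 were above the filter, Sox13 (0.28), Sox4 (0.10), Sox2 (0.02) and Sox10 (-0.17), and 0 passed (limma adjusted p from 0.395 to 0.940). Sox4, bright in both groups, averaged 11.02 in hCG and 10.92 in Control spheres.

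**Figure D4:**
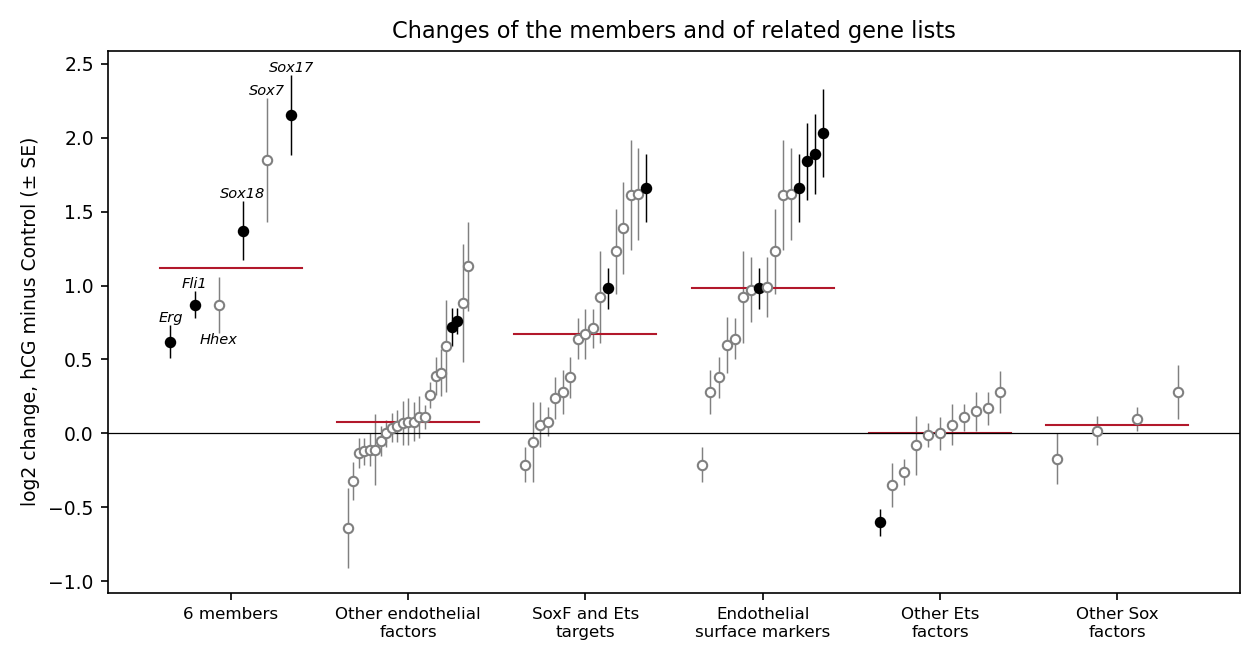
Log2 change, hCG minus Control, with its SE (y axis) of each tested gene in 6 lists, ordered by size within a list, with filled points for genes that passed limma's test over all genes and red lines at list medians. The medians are 1.12 for the 6 factors, 0.08 for other endothelial factors, 0.67 for SoxF and Ets targets, 0.99 for endothelial surface markers, 0.00 for other Ets factors and 0.06 for other Sox factors, and lists share some genes.

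Cells other than endothelium can carry some of these factors, and their markers were counted in the same fit. Of 15 blood cell markers 12 had a probe set and 4 were above the filter, with T cell genes Cd3e, Cd3d and Cd3g and the B cell genes Cd79b and Ms4a1 below it; 0 passed. Their mean level relative to the Control mean ran from -0.43 to 0.23 in hCG and from -0.12 to 0.12 in Control spheres. The one of smallest p was the leukocyte gene Ptprc, with a change of -1.09 (limma adjusted p = 0.102), and the next was the platelet gene Pf4, with one of 1.32 in the other direction (limma adjusted p = 0.131). Pf4 read 5.94, 7.27 and 7.63 on hCG arrays and 6.01, 5.42 and 5.47 on Control arrays, with hCG 5 inside the Control range. Of 11 macrophage markers 5 were tested and 0 passed, with mean levels from -0.04 to 0.31 in hCG and from -0.21 to 0.36 in Control spheres. Their changes ran both ways, with a median of 0.55: Cd68 had one of -1.33 (limma adjusted p = 0.0879), while Fcer1g had 0.78, Lyz2 0.90 and Tyrobp 0.55 (limma adjusted p = 0.107, 0.136 and 0.146). Below the filter, the mannose receptor gene Mrc1 read 2.68, 3.49 and 3.92 on hCG arrays and 2.16, 1.98 and 1.54 on Control arrays, without overlap. The part of these cells in the results was not tested.

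Markers of lymphatic endothelium, pericytes and fibroblasts moved in part with the 6 factors. Of 7 lymphatic markers 4 were tested and 1 rose, and the mean level of the list overlapped, from -0.22 to 0.37 in hCG and from -0.11 to 0.13 in Control spheres. The one that rose was Lyve1, a hyaluronan receptor of lymphatic endothelium and some macrophages, with 3.33, 4.33 and 4.26 on hCG arrays and 2.29, 1.97 and 2.51 on Control arrays. These groups did not overlap, and the change was 1.72 (SE 0.28, limma adjusted p = 0.0424). The matrix protein gene Reln (-1.33) and Pdpn (-0.41) had hCG arrays wholly below Control arrays and did not pass, and the chemokine gene Ccl21 had a change of 0.51. Prox1, the factor that defines lymphatic endothelium and that Sox18 switches on in mice, was below the filter at 2.32 in hCG and 2.63 in Control spheres. The 3 hCG values of Prox1, from 2.19 to 2.40, were below its Control values, from 2.52 to 2.71. Of 7 tested pericyte markers 1 rose, Rgs5, a regulator of G protein signals (0.66, SE 0.11, limma adjusted p = 0.0439). Its Control mean of 2.47 was also under the filter level. The pericyte list's mean level ran from 0.39 to 0.59 in hCG and from -0.11 to 0.10 in Control spheres. Of 11 fibroblast markers Lum rose (1.13) and Dpt fell (-0.99), with list levels from 0.18 to 0.39 in hCG and from -0.08 to 0.16 in Control spheres. Their part in the changes of the 6 factors was not tested.

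Markers of mammary epithelium were counted as well. All 13 measured mammary epithelial markers were above the filter and 0 passed, with a median change of -0.27; Epcam averaged 7.04 in hCG and 7.32 in Control spheres. Mean epithelial levels overlapped, from -0.32 to -0.19 in hCG and from -0.81 to 0.67 in Control spheres, where Control 7 was the highest array. The list was split in direction, with 4 of 13 genes above 0, of which Cdh1 rounds to 0.00: the claudin gene Cldn7 had a change of -0.92 (limma adjusted p = 0.246), while the basal keratin genes Krt14 and Krt5 had changes of 0.92 and 0.69 and the luminal Krt8 one of 0.11. Fibroblast genes were bright in both groups, for instance Col3a1 at 12.40 in hCG and 12.02 in Control spheres.

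For each factor the 3 genes of most similar profile were found by Pearson's r of log2 values over the 6 arrays among the other 10418 genes. Sox18 was most like the endothelial gene Emcn (0.995), then Gtf3a and Fv1 (0.994 each). Erg resembled Pabpc4 (0.996), the matrix protease gene Adamts9 (0.996) and the DNA polymerase gene Pola1 (0.995). Sox17 was most like the ribosomal protein gene Rpl34 (0.996), whose change was only 0.21, then Plppr3 (0.996) and Enpp3 (0.994), which rose by 1.09 and 0.88 (limma adjusted p = 0.0368 for each). Sox7 was nearest to Setd6 (0.998), then Golm1 and the ribosomal protein gene Rpl27a (0.997 each). Fli1 was nearest to Apaf1 and Cyc1 (0.994 each) and Arhgap21 (0.993), and Hhex to Cradd (0.993), Siglec10 (0.991) and Nxt1 (0.990). Between 112 genes, for Hhex, and 304 genes, for Sox17, reached an r of 0.95, so likeness over these 6 arrays in 2 groups is common and names no partner of a factor.

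Upstream sequence was at hand for only 2 of the 6 factors, Erg and Hhex, and is shown to let the control regions be compared. Both were higher on hCG arrays, but Hhex missed the threshold. Their Pearson's r over the 6 arrays, 0.870, was the lowest of the 15 pairs of factors. The 250 bases before the gene start come from RefSeq on GRCr8, at chr11:48251567-48251816 on the minus strand for Erg, a start inside the annotated gene, and at chr1:244602695-244602944 on the plus strand for Hhex. Capitals mark the Ets core GGAA and the Sox core ACAAT on either strand, as GGAA or TTCC and ACAAT or ATTGT, and no marked sites overlap.
Erg: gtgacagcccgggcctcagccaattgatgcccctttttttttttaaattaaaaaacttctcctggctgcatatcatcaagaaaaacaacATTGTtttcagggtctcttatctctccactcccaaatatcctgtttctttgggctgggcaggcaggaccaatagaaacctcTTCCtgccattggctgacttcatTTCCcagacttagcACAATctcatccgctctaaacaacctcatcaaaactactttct
Hhex: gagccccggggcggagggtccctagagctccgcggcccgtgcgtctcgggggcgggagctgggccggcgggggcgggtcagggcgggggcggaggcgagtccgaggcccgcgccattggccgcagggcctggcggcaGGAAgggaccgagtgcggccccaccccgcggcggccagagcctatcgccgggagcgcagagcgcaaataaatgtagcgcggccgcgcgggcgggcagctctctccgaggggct
The Erg window held 2 Ets cores and 2 Sox cores, and the Hhex window 1 Ets core and 0 Sox cores. The longer Ets letters CCGGAA, which contain the core, were in neither. Of 33469 such windows in the table, 93.2% held GGAA, 12.6% CCGGAA and 30.0% ACAAT on either strand. The Hhex window was rich in G and C at 78.4%, the Erg window had 43.2%, and the mean over all windows was 52.2%. A match to letters describes the window and does not show that a factor binds there.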

How the data were processed

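RNA of 6 mammosphere cultures was amplified in 2 cycles and labelled with biotin, as the labels' protocols state. The authors' deposited table of log2 expression was used, with 31099 probe sets and 0 missing values. RMA, MAS5 and limma are named in the submitters' processing notes, without versions or roles. No source used here states the log base or normalization: since the values span 0.74 to 13.1 and are distributed almost alike on all arrays, they were read as log2 values that had been normalized between arrays, a step that would hide a change shared by most genes. The number of arrays limits the precision.

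The 57 control probe sets were set aside, and the dimmest 40% of the other 31042 by their mean over all arrays (below 2.67) were left out, leaving 18625. Of the 31042, 20826 named 1 gene, 436 several and 9780 none in the platform annotation. Symbols of 20758 were updated through a RefSeq gene table of GRCr8, used for names alone, and 68 had no match there. Each gene was represented by its brightest probe set above the filter, which gave 10424 genes.

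Groups were compared with limma 3.58.1 (lmFit and eBayes, R 4.3.3) over all 18625 probe sets, two-sided, with Benjamini-Hochberg adjustment over the 10424 genes and a threshold of 0.05. Single differences were compared by exact permutation with scipy 1.17.1. After the main fit, the method was tried on simulated data with means and SDs taken from that fit. Of 200 genes changed by 1 on the log2 scale 191 were recovered, with 18 false calls. With a change of 2, 198 were recovered, with 16 false calls. Noise was drawn independently for each gene and array, so shifts shared by the genes of an array were not simulated.

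The 6 genes and the other gene lists were chosen with earlier results of these data known. Named genes are all probe sets of the 6 factors, the 3 genes most like each, the 5 tested genes of smallest p in the factor, target and marker lists (3 for other Ets and Sox factors, 1 for other cell types) and each list gene that passed. Any other gene was picked to describe its list once its values had been seen. Alternatives were 2 other filters, array weights, a block for the array number, centring on the median, quantile or cyclic loess normalization, eBayes with trend or robust, averaging the probe sets of a gene, every probe set as a feature and leaving out each array. Fitting eBayes to the chosen probe sets alone and adjusting over all tested probe sets were added after seeing the data. The array numbers were checked for pairing, with the result given in the closing part.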

Additional observations from a re-analysis of the deposited data

How the results depend on the processing

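The change of each of the 6 factors, read from its brightest probe set or the mean of its probe sets, stayed above 0 in the alternatives in which it was tested as a gene; Fli1 probe set 1377494_at, taken as a feature of its own, had a change of -0.06. The limma count of genes called was 190, and it was 2663 with array weights, 306 with a variance trend and 298 with every probe set as a feature. With 1 array left out in turn it lay between 0 and 584, with 1455 to 1950 genes at an unadjusted p under 0.05 where it was 0. Of the 6 factors 4 were called, 2 with a stricter filter that removed the dimmest 60%, where Sox17, Erg and Hhex were no longer tested, and between 0 and 6 with 1 array left out. Of the endothelial markers 5 were called, 13 with array weights and between 0 and 13 with 1 array left out. The cause of these shifts was not tested, beyond the smaller number of genes or arrays in some fits. The array numbers 5, 6 and 7 are shared by both groups but mark no stated pair: deviations from the group means correlated by -0.09, 0.13 and 0.00 between arrays of one number, and not every Control array correlated best with the hCG array of its own number. With the array number as a replicate block limma called 118 genes and 2 of the 6 factors, Sox17 and Fli1. The difference between Sox17 and the endothelial markers lay between 0.97 and 1.16 in its alternatives, which all read Sox17 from the same probe set, dim in Control spheres. Dim signal limits the folds of Sox17 and Hhex, and of the list genes Lyve1 and Rgs5, whose Control means were under the filter level.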
